A study of Homo sapiens with 8 samples.

Results

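Keratin 19 (KRT19) was examined together with 9 other keratins in cells labelled A549, to ask what happened to the rest of the keratin set when KRT19 was raised. The 10 genes were taken from a list of names, with no threshold on their values, although earlier results of these data were known when the list was made. They are KRT19, KRT8, KRT18, KRT7 and KRT20, which are keratins of simple epithelia, KRT5, KRT14 and KRT17, which are keratins of basal and stratified epithelia, and KRT10 and KRT80, which are keratins of differentiating epithelia. These are 10 of the 58735 genes in the table, and 6 of them passed the filter on low counts. The study sequenced RNA from 4 libraries of cells carrying an empty lentiviral vector (EV group) and 4 libraries of cells overexpressing KRT19 (KRT19 group). A549 is an established human line from a lung adenocarcinoma, and both groups share the medium, the viral vector and, per the study's methods, selection with puromycin. The methods describe the introduced KRT19 as Flag-tagged, and nothing in the sources used here says that the 4 libraries of a group came from separate transductions. P-values therefore measure the spread between these libraries, which may be technical.

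Keratins are the intermediate filament proteins of epithelial cells. They fall into the acidic type I keratins and the basic or neutral type II keratins, and a filament is built from pairs of one type I with one type II chain. KRT8 (type II) and KRT18 (type I) are the usual first pair of simple epithelia, KRT7 (type II) and KRT19 (type I) are added in many ducts and in airway linings, and KRT20 (type I) belongs to the gut. KRT5 (type II) with KRT14 (type I) is the pair of basal cells, KRT17 (type I) is induced in stressed or injured epithelia, and KRT10 (type I) is made in the upper layers of the epidermis. Keratin chains that lack a partner are known to be unstable as proteins. RNA counts do not measure protein.

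KRT19 differs from its relatives at the end of the gene, and the stretch is printed because it shows how far the members differ in a conserved stretch. The 27 coding bases below encode the conserved end of the central rod, the helical part through which chains pair. They are given for each tested member in which the motif that ends the rod was found in the translated coding sequence (GENCODE 29 transcripts, GRCh38, sense strand, 5′ to 3′). Capitals mark the bases that differ from KRT19.
KRT19: acctaccgcagcctgctcgagggacag
KRT18: acctaccgcCgcctgctGgaAgATGGC
KRT10: acctaccgcagcctgctAgaAggaGag
KRT8: acctacAgGaAGctgctGgagggCGag
KRT7: acctaccgcaAGctgctGgagggCGag
KRT18 differed from KRT19 at 8 of these bases, KRT8 at 7, KRT7 at 5 and KRT10 at 3. The motif was found in 45 of the 54 keratins and not in KRT80. After this stretch only 42 coding bases of KRT19 were left, stop codon included, against 132 in KRT18, 213 in KRT7, 258 in KRT8 and 387 in KRT10. KRT19 is known as the keratin with almost no tail, and its coding sequence of 1203 bases was the shortest of the 6 tested members. Over aligned bases of the whole coding sequence, KRT19 was 68.6% identical to KRT10, 66.6% to KRT18, 65.2% to KRT7, 63.3% to KRT8 and 62.0% to KRT80. None of the 1316 words of 75 bases in the KRT19 transcript occurred in the transcript of another gene. The study's own RT-PCR primers for KRT19, shown because they measure the same transcript by another assay, were tgagtgacatgcgaagccaa (forward) and tcagtaacctcggacctgct (reverse). They lay at coding bases 746 to 765 and 874 to 893, spanned 148 bases and matched no other gene. Both lie within the coding sequence, so neither they nor a count per gene can separate the cell's own KRT19 from the introduced copy.

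Depth ran from 14073065 to 17054364 counts a library, and 14621 genes were tested. Replicate pairs differed by more than counting noise. Their chi-square over degrees of freedom was 2.67 to 6.02 for pairs without KRT19 replicate 3 and 7.14 to 12.4 for pairs with it, and results that rest on this library are also given without it. The label was checked against marker genes. CDH1 had at most 1 count in any library, EPCAM at most 3 and the alveolar factor NKX2-1 at most 4, while vimentin (VIM) had 33316 to 42072. The reductase AKR1B10, which is abundant in A549, had 1 to 14 counts. CDKN2A had 1328 to 1824 counts and MTAP 653 to 870, although A549 is known for a deletion of both. The extraction text in the labels names retina, and NRL, a transcription factor of the retina, had 9 to 24 counts. The cells are therefore called by their label only. RNA from such bulk samples cannot tell fewer cells of a kind from less RNA per cell.

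KRT19 itself was near the detection limit in EV libraries and among the more abundant transcripts in KRT19 libraries. The 4 EV libraries held 1, 3, 2 and 5 reads of KRT19 and the 4 KRT19 libraries held 5147, 4353, 4923 and 4696. The groups did not overlap, and 3 of the 4 EV libraries were at or under the floor of 3 counts. Its mean level in CPM (counts scaled to a common library size with TMM factors) was 0.166 ± 0.0975 for EV against 304.8 ± 11.04 for KRT19 (SD, 4 libraries each). The fitted log2 fold change was 10.75 ± 0.12 (SE, edgeR quasi-likelihood test, adjusted p = 5.19e-20). Because 11 EV reads carry most of the uncertainty, the ratio of the summed counts scaled for depth was also given its exact counting interval, and it was 1800-fold with a 95% interval of 1006 to 3606. Such intervals cover counting error only. The SE of 0.12, taken from the test statistic, gives an interval narrower than this counting error alone. It therefore understates the uncertainty of the fold change. KRT19 passed the filter on low counts only through the libraries in which it was overexpressed, and its rise was what the design set.

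**Figure D1:**
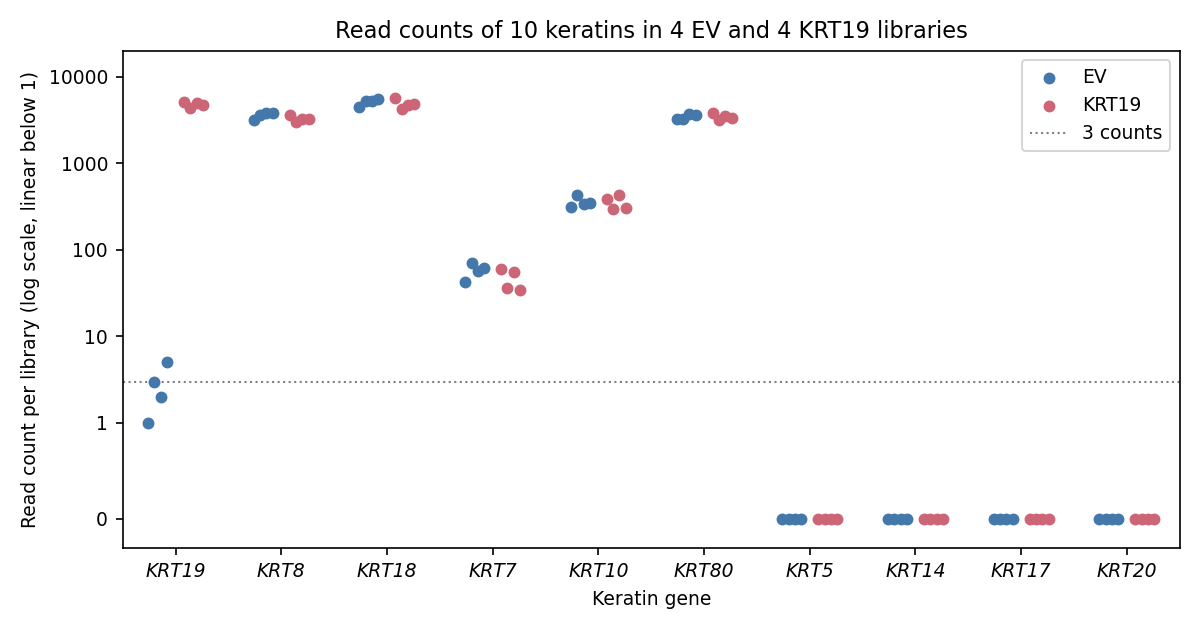
Read counts of the 10 keratins in each library, on an axis that is logarithmic above 1 and linear below it, with 4 EV and 4 KRT19 libraries as separate points and a dotted line at 3 counts. KRT19 goes from 1 to 5 reads in EV to 4353 to 5147 in KRT19 libraries, KRT8, KRT18, KRT7, KRT10 and KRT80 have overlapping groups, and KRT5, KRT14, KRT17 and KRT20 stay at 0.

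The level that KRT19 reached was that of the cells' main type I keratin. Ranked by CPM among the 58735 genes, KRT19 stood between 16067 and 19221 in EV libraries and between 494 and 530 in KRT19 libraries, where KRT18 stood between 436 and 572. In CPM the 2 genes overlapped in KRT19 libraries, with 288.3 to 310.7 for KRT19 and 273.8 to 346.9 for KRT18. Divided by the length of all exons, KRT19 (130.5 ± 4.73 CPM per kilobase) stood above KRT18 (96.6 ± 9.47, SD, n = 4 each). Which of the 2 was higher depended on the length used. KRT19 stood at 1.36 ± 0.0937 times KRT18 by all exons, at 1.06 ± 0.0731 times by coding length and at 0.986 ± 0.0680 times with counts not divided by length. Each of these lengths is that of the annotated gene. The length of the introduced transcript is not given in the sources used here.

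Among the other 5 tested members, 3 were expressed strongly, and none passed a test of the group difference. The background is small, since only 0.00684% of the genes tested passed the adjusted threshold, namely KRT19 itself. At an unadjusted p under 0.05, 2.85% of all genes were higher and 2.56% lower in KRT19 libraries, and of the 5 other members 0 were. Groups did not overlap in CPM for 1.63% of genes in the higher direction and 1.81% in the lower, and for 0 of these 5 members.

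KRT8 is the type II chain that pairs with KRT18 and can also pair with KRT19. Its counts were 3131, 3607, 3795 and 3857 in EV libraries and 3631, 2988, 3233 and 3222 in KRT19 libraries. KRT19 replicate 3 had the lowest level, 189.3 CPM, and the groups overlapped between 208.4 and 219.2 CPM. KRT8 averaged 220.9 ± 10.1 CPM over EV and 208.5 ± 13.2 CPM over KRT19 libraries (SD, n = 4 per group). The log2 fold change of KRT8 was -0.083 ± 0.055 (SE, edgeR adjusted p = 0.906), with a 95% interval of -0.20 to 0.032, which is a change of -12.8% to 2.22%. Without KRT19 replicate 3 the log2 fold change of KRT8 was -0.039.

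KRT18 is the type I chain that KRT19 joined. The EV libraries held 4499, 5232, 5302 and 5477 reads of KRT18 and the KRT19 libraries 5746, 4271, 4675 and 4818. The KRT19 group was the wider, since it held both the highest level (346.9 CPM in replicate 1) and the lowest (273.8 CPM in replicate 3). The averages of KRT18 were 314.9 ± 10.8 CPM for EV and 310.8 ± 30.5 CPM for KRT19 (SD, n = 4 per group). Its log2 fold change came to -0.019 ± 0.061 (SE, edgeR unadjusted p = 0.759), with a 95% interval of -0.15 to 0.11, and it was 0.038 without KRT19 replicate 3. In KRT10 and KRT80, described next, the values without that library were -0.026 and 0.082.

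KRT80 is a type II keratin of differentiating epithelia and was counted here about as often as KRT8, with 27561 reads over the 8 libraries against 27464. Its counts were 3236, 3278, 3692 and 3574 in EV and 3777, 3177, 3521 and 3306 in KRT19 libraries, which overlapped. KRT80 averaged 211.95 ± 11.3 CPM for EV and 219.7 ± 9.86 CPM for KRT19 (SD, n = 4 per group). Its log2 fold change came to 0.052 ± 0.052 (SE, edgeR adjusted p = 0.931; 95% interval -0.058 to 0.16).

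KRT10 and KRT7 were lower. KRT10 had 309, 432, 339 and 351 reads in EV and 385, 298, 427 and 306 in KRT19 libraries, with EV replicate 2 and KRT19 replicate 3 the highest. Its means of 21.97 ± 2.71 and 22.4 ± 2.13 CPM gave a log2 fold change of 0.031 ± 0.092 (SE, edgeR adjusted p = 0.973), and 95% limits of -0.16 and 0.22. KRT7 had 43, 71, 57 and 61 reads in EV and 60, 36, 55 and 34 in KRT19 libraries. The 2 lowest KRT7 counts were KRT19 replicates 2 and 4, and the groups overlapped. KRT7 averaged 3.55 ± 0.581 CPM for EV and 2.91 ± 0.622 CPM for KRT19, and its log2 fold change was -0.28 ± 0.18 (SE, edgeR unadjusted p = 0.145, adjusted p = 0.906). At this depth a change of KRT7 between -36.9% and 7.65% lay within the 95% interval.

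KRT5, KRT14, KRT17 and KRT20 had 0 reads in all 8 libraries. A count of 0 allows up to 3 counts, or 0.176 to 0.213 CPM depending on the library. No change in the 2 basal cell partners KRT5 and KRT14, in KRT17 or in the gut keratin KRT20 was therefore detectable at this depth, and none of the 4 was switched on above that limit in KRT19 libraries.

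Exact permutation of the library labels over CPM (two-sided, smallest possible p = 0.0286) gave p = 0.2 for KRT8, 0.857 for KRT18, 0.2 for KRT7, 0.829 for KRT10 and 0.343 for KRT80.

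In the larger family of 54 keratins, 9 were tested. Of 28 type I keratins, 17 were at 0 in every library and 6 were tested, of which KRT19 was the 1 past the adjusted threshold. Of 26 type II keratins, 16 were at 0 in every library and 3 were tested (KRT8, KRT7 and KRT80), of which 0 passed. The tested type I keratins outside the 10 were KRT15, a keratin of basal cells, and the hair keratins KRT34 and KRT32. KRT15 averaged 8.95 ± 1.24 CPM for EV and 8.63 ± 2.19 CPM for KRT19 (SD, n = 4 per group), with a log2 fold change of -0.052 ± 0.15 (SE, edgeR adjusted p = 0.973). KRT34 (1.59 ± 0.374 against 1.52 ± 0.370 CPM) and KRT32 (0.821 ± 0.347 against 0.674 ± 0.190) were near the floor, with log2 fold changes of -0.066 ± 0.25 and -0.30 ± 0.35 (SE). The 95% intervals of all 8 tested keratins other than KRT19 contained 0.

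**Figure D2:**
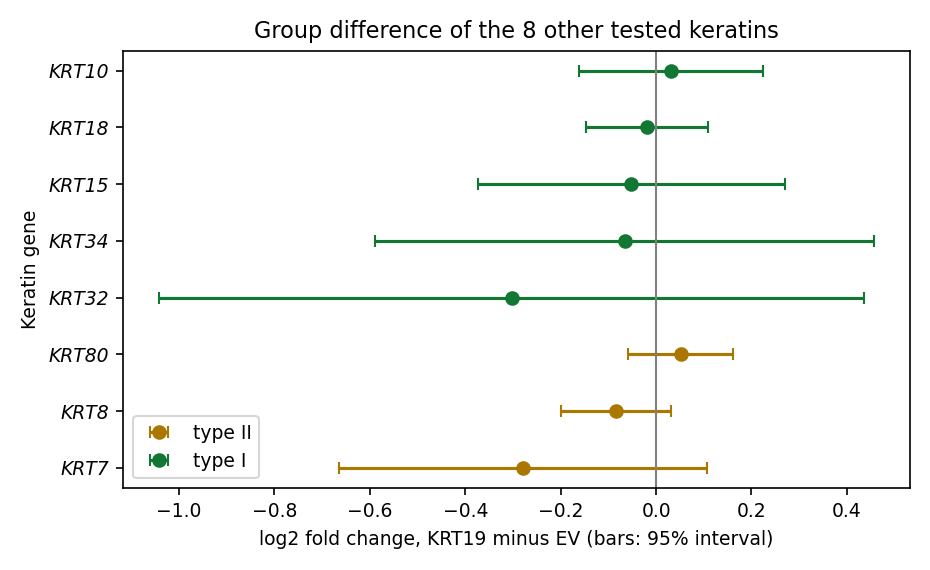
Log2 fold change (KRT19 minus EV) of the 8 tested keratins other than KRT19, from the edgeR fit over 4 EV and 4 KRT19 libraries, with bars for the 95% interval and colours for type I and type II. Every interval crosses 0, and the intervals widen from KRT80, KRT8 and KRT18 to the scarce KRT7, KRT15, KRT34 and KRT32.

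With KRT19 added, the make-up of the keratin transcripts shifted. In CPM per kilobase of exon, KRT18 made up 50.8% ± 0.628 of all keratin transcripts in EV libraries, KRT80 25.3% ± 1.29, KRT8 16.6% ± 0.293 and KRT10 5.32% ± 0.694 (SD, n = 4). In KRT19 libraries KRT19 made up 40.6% ± 0.990 of them, from 39.2% to 41.4%, and KRT18 29.97% ± 1.40. KRT19 thus took 54.4% ± 1.49 of the type I transcripts, and the share of KRT18 among them went from 88.3% ± 1.16 to 40.2% ± 1.75. These shares are a description, since KRT19 is part of each sum. The share of KRT19 among keratins was 37.3% by the length of the principal transcript, 30.9% by coding length and 28.2% with counts not divided by length. These lengths too are those of annotated genes and not of the introduced transcript. The same holds for the ratios with KRT19 below. The order of the type II chains also depended on length. By all exons KRT80 held 59.5% ± 1.48 of type II transcripts in EV libraries and KRT8 39.2% ± 1.27, while by the principal transcript KRT8 held 64.5% and KRT80 34.1%.

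**Figure D3:**
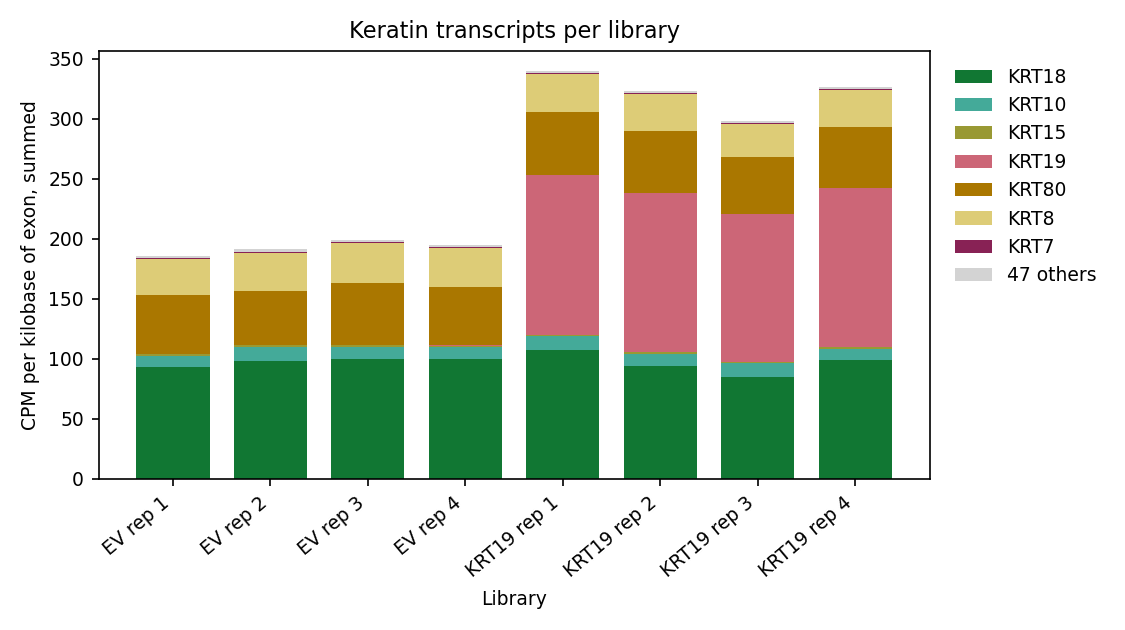
Stacked levels of keratin transcripts in each of the 8 libraries in CPM per kilobase of exon, starting at 0, with 7 keratins by colour and the 47 others in grey. The KRT19 segment appears in the 4 KRT19 libraries between those of KRT15 and KRT80. The segments for KRT18, KRT80 and KRT8 resemble those of the EV libraries in height.

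The balance of type I to type II transcripts bears on pairing, since each filament unit needs one chain of each type. Without KRT19, the ratio of type I to type II keratins in CPM per kilobase was 1.30, 1.45, 1.31 and 1.36 in the EV libraries and 1.42, 1.28, 1.30 and 1.36 in the KRT19 libraries. The ranges overlapped almost completely. The mean log2 ratio was 0.44 ± 0.069 for EV and 0.42 ± 0.068 for KRT19 (SD, n = 4 per group), a difference of -0.016 (exact permutation test, two-sided, p = 0.714). With KRT19 in the sum the ratio averaged 1.36 ± 0.0664 for EV and 2.94 ± 0.0545 for KRT19, from 2.87 to 2.98, which describes the added gene and was not tested. The absolute ratio depended on length, and by coding length it averaged 0.852 ± 0.0328 for EV and 1.67 ± 0.0370 for KRT19 with KRT19 included. Leaving KRT80 out of the type II sum gave 3.35 ± 0.0783 for EV and 3.51 ± 0.127 for KRT19 with KRT19 uncounted (difference of log2 ratios 0.069, exact permutation p = 0.0571).

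**Figure D4:**
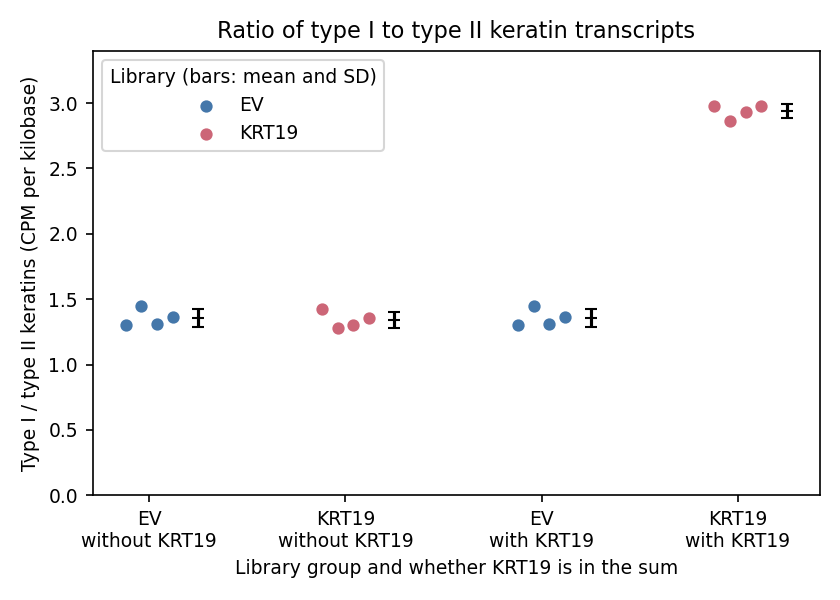
Ratio of summed type I to summed type II keratin transcripts in CPM per kilobase of exon, for 4 EV and 4 KRT19 libraries, left without and right with KRT19 in the type I sum, with bars for mean and SD. Without KRT19 both groups lie between 1.28 and 1.45, and with it the KRT19 libraries lie between 2.87 and 2.98.

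The ratio of KRT8 to KRT18 reads, a measure of the main pair that needs no scaling for depth, was 0.696, 0.689, 0.716 and 0.704 in EV libraries and 0.632, 0.700, 0.692 and 0.669 in KRT19 libraries. KRT19 replicates 1 and 4 lay below all EV libraries and the groups overlapped (0.701 ± 0.0114 against 0.673 ± 0.0303, SD, n = 4 each, exact permutation test, two-sided, p = 0.143, chosen after the values were seen). Across the 8 libraries log2 CPM of KRT8 and KRT18 had a Pearson r of 0.829, which placed KRT18 at rank 615 among 9510 genes ordered by their likeness to KRT8. The genes most like KRT8 were TPI1 (r = 0.991), ANXA11 (0.985) and ERP29 (0.984). Those most like KRT18 were SLC25A5 (0.992), PCBD1 (0.992) and LAMP1 (0.991). The 8 points share their library with every other gene, and KRT19 replicate 3 was the lowest of the 8 in both keratins and in each of these 6 genes. Without it, over 7 libraries, r was 0.538 between KRT8 and KRT18, 0.973 between KRT8 and TPI1 and 0.982 between KRT18 and SLC25A5. KRT8 had an r of 0.318 with KRT80 and of -0.43 with KRT10 over 8 libraries, and of 0.036 and -0.025 without that library.

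KRT19 lies on chromosome 17 in the cluster of type I keratins, at 41523617 to 41528308 on the minus strand (GRCh38), and KRT8, KRT18, KRT7 and KRT80 lie in the type II cluster on chromosome 12. KRT18 is the type I keratin found there, beside KRT8. The nearest gene to KRT19, KRT15, ends 1087 bases away and had 105 to 194 reads (log2 fold change above). Of 30 other genes within 200 kilobases on either side, 24 had no more than 3 reads in any library and 18 had 0 in all. The exceptions were KRT15, KRT34, KRT32, KRT13, HAP1 and the translation factor EIF1, the last with 6103 to 7387 reads. No other gene of the annotation overlapped KRT19.

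**Figure D5:**
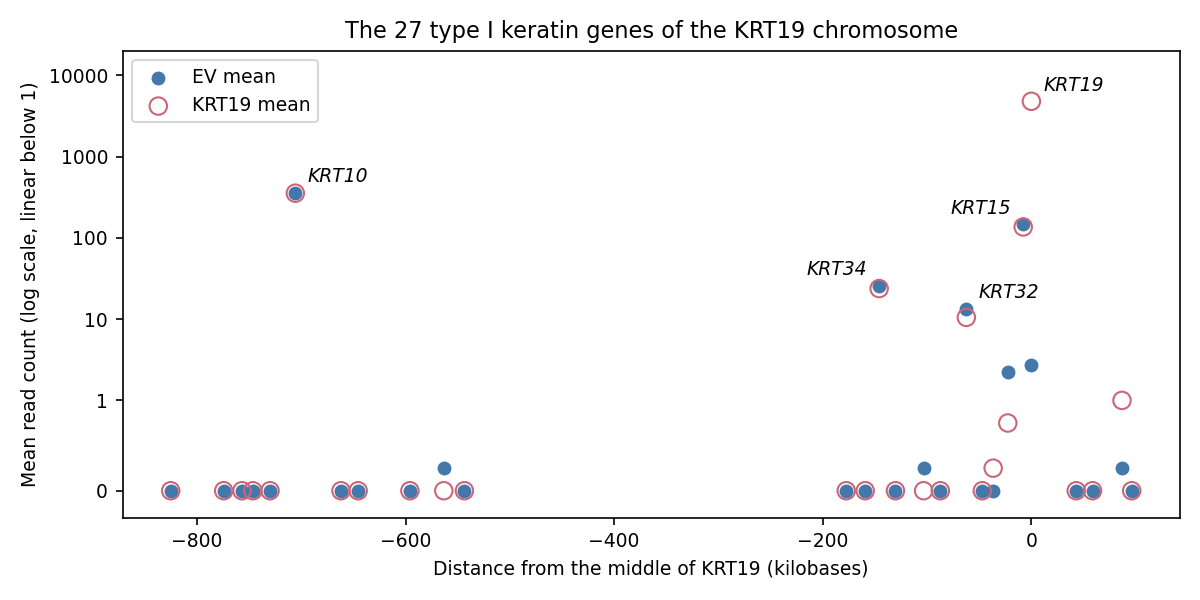
Mean read count of the 27 type I keratin genes of chromosome 17 against their distance in kilobases from the middle of KRT19, filled for EV and open for KRT19 libraries, on an axis that is logarithmic above 1. KRT19 separates between the groups, while its neighbour KRT15 and the more distant KRT34, KRT32 and KRT10 have filled and open points at nearly the same height.

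Other members carry limits that KRT19 does not. KRT8 (chromosome 12, 52897187 to 52949954, minus strand) and KRT18 (chromosome 12, 52948871 to 52952901, plus strand) overlap by 1084 bases on opposite strands, and how the counting treated strand is not given in the sources used here. KRT10 shares 3490 bases with TMEM99 on the other strand, which had 169 to 233 reads. KRT7 shares 2887 bases with KRT86 on the same strand, where KRT86 had at most 8 reads, and also overlaps KRT87P (1 to 6 reads) and KRT7-AS (at most 4) on the other strand. KRT80 shares 23005 bases with LINC00592 on the other strand, which had 4 to 11 reads. Of 75-base words, 15.7% of the KRT8 transcript and 5.85% of the KRT18 transcript also occur in transcripts of other genes, with KRT8P3 and KRT18P11 sharing the most. Of 147 keratin pseudogenes, 103 were at 0 in all libraries and 2 were tested. KRT8P12 averaged 13.2 ± 1.41 CPM for EV and 14.99 ± 1.77 CPM for KRT19 (SD, n = 4 per group), with a log2 fold change of 0.19 ± 0.10 (SE, edgeR unadjusted p = 0.0862, adjusted p = 0.906). KRT8P46 had a log2 fold change of -0.046 ± 0.29 (SE) at under 1 CPM. The KRT19 pseudogenes KRT19P1, KRT19P2, KRT19P3, KRT19P4 and KRT19P6 were at 0 in all 8 libraries, also where KRT19 had 4353 to 5147 reads.

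Keratin filaments are anchored and regulated by other proteins, and 20 such genes were listed: plakins and desmosomal and hemidesmosomal proteins, which tie filaments to junctions, and adaptors, kinases and chaperones that bind keratins. Of these, 17 were tested and 0 passed the adjusted threshold. At an unadjusted p under 0.05, 2 were higher and 2 lower, beside 2.85% and 2.56% of all genes tested, and the groups of all 4 overlapped. The median log2 fold change of the 17 was -0.020 beside 0.0051 over all genes tested. The higher ones were PNN (pinin, a protein of desmosomes and of nuclear speckles) and PKP2 (plakophilin 2, a desmosomal plaque protein). PNN had 1385 to 1661 reads in EV and 1443, 1564, 1605 and 2385 in KRT19 libraries. Its log2 fold change was 0.27 ± 0.091 (SE, edgeR unadjusted p = 0.00958, adjusted p = 0.889), and 0.13 without KRT19 replicate 3, the library with 2385 reads. PKP2 averaged 46.4 ± 1.13 CPM for EV and 50.8 ± 2.76 CPM for KRT19, with a log2 fold change of 0.13 ± 0.058 (edgeR adjusted p = 0.906).

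The lower ones were DSP and TRADD. DSP (desmoplakin), which links keratin filaments to desmosomes, averaged 54.0 ± 2.06 CPM for EV and 48.8 ± 4.57 CPM for KRT19 (SD, n = 4 per group), a log2 fold change of -0.15 ± 0.067 (SE, edgeR adjusted p = 0.906). TRADD, the adaptor of the TNF receptor that binds KRT18, averaged 23.5 ± 1.53 and 20.7 ± 1.84 CPM, a log2 fold change of -0.18 ± 0.080 (edgeR adjusted p = 0.906). The 3 partners with the highest level per length were PLEC (plectin, 54.8 against 55.1 CPM per kilobase), ITGA6 (an integrin of hemidesmosomes, 52.1 against 48.5) and CSNK1A1 (casein kinase 1 alpha, 37.9 against 37.2), with log2 fold changes of 0.0068, -0.10 and -0.028. EPPK1, EVPL and PKP1 had at most 2 reads in any library. The number of partners at an unadjusted p under 0.05 fell from 4 to 1 without EV replicate 2 and to 2 without EV replicate 1, EV replicate 4 or KRT19 replicate 4, and it was 1 with the replicate block. In the fit with the looser filter, which tested 30250 genes, PNN passed with an edgeR adjusted p of 0.00952. That fit put more genes past the adjusted threshold than the reported one (numbers below). The rise of PNN leaned on KRT19 replicate 3, as given above.

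Markers of other cell kinds were compared beside these keratins. Of 5 mesenchymal markers, 0 passed the adjusted threshold, and 2 were lower in KRT19 libraries at an unadjusted p under 0.05 and without overlap, beside 2.56% and 1.81% of all genes tested by these rules. VIM, the intermediate filament protein of mesenchymal cells, averaged 2485 ± 43.8 CPM for EV and 2329 ± 39.8 CPM for KRT19, and SPARC 2.73 ± 0.282 and 2.00 ± 0.490 (SD, n = 4 per group). VIM lost the call at an unadjusted p under 0.05 without EV replicate 1 (edgeR unadjusted p = 0.0880), EV replicate 4 (0.0604) or KRT19 replicate 4 (0.0789). It also lost the call with the replicate block (edgeR unadjusted p = 0.114) and under the looser filter (0.0512). SPARC lost the call without EV replicate 1 (edgeR unadjusted p = 0.105), EV replicate 3 (0.0532), EV replicate 4 (0.0638), KRT19 replicate 2 (0.0706) or KRT19 replicate 3 (0.165). By method, SPARC also lost it with the DESeq2 Wald test (unadjusted p = 0.0651) and with limma-voom (unadjusted p = 0.102). Without KRT19 replicate 3 the log2 fold change of VIM was -0.084 (-0.093 with it) and that of SPARC -0.29 (-0.45 with it). The other 3 overlapped, with log2 fold changes of 0.15 for ZEB1, -0.0023 for CDH2 and -0.11 for FN1. Without KRT19 replicate 3 these were 0.080, -0.017 and -0.0016. ZEB1 gained a call, as higher, without EV replicate 4 (edgeR unadjusted p = 0.0308), without KRT19 replicate 1 (0.0251) and under the looser filter (0.0419). The summed level of the 5 markers, which is almost all VIM, lay between 2585 and 2694 CPM in EV and between 2414 and 2517 in KRT19 libraries, and the part of these markers in the keratin values was not tested. Of 8 epithelial markers, KRT8, KRT18 and KRT7 included, 4 were tested, and their log2 fold changes were all negative with a median of -0.15 (KRT18 turned positive with limma-voom and without KRT19 replicate 3), while 0 had an unadjusted p under 0.05. The fourth of these, CLDN4, had 123 to 183 reads and overlapped (log2 fold change -0.22 ± 0.11, SE, edgeR unadjusted p = 0.0628), and its log2 fold change was -0.16 without KRT19 replicate 3. CLDN4 came under an unadjusted p of 0.05 without EV replicate 1 (edgeR unadjusted p = 0.0439) and without KRT19 replicate 4 (0.0203). CDH1, CLDN7 and ESRP1 were at or under 3 reads. EPCAM had 1, 1, 0 and 0 reads in EV and 3, 1, 2 and 3 in KRT19 libraries, which did not overlap in CPM but were all at or under the floor of 3 counts. The alveolar surfactant genes SFTPA1, SFTPA2, SFTPB and SFTPC were at 0 in every library.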

How the data were processed

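Raw counts per gene, not normalized, were deposited by the authors in 1 table with 8 libraries. The submitters' processing notes name Bowtie 0.12.2, featureCounts 1.5.0-p3 and DESeq2 with build hg38; the handling of strand and of reads matching several genes is not given in the sources used here. Groups and replicate numbers came from the sample titles. The fit used edgeR 4.0.16 under R 4.3.3 (filterByExpr, TMM, glmQLFit and glmQLFTest, group as the only term) over all 8 libraries, which left 14621 genes. P-values were two-sided and adjusted by the Benjamini-Hochberg method over all tested genes, with a threshold of 0.05. The SE of a fold change was taken as its log2 value over the root of the quasi-likelihood F. The procedure was tested on simulated data. Single values were compared by exact permutation of library labels. Transcripts of GENCODE 29 were read with Biopython 1.88.

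The members and lists were chosen with earlier results of these data known. By rule, all members were named, further keratins and keratin pseudogenes if they passed the filter, keratin partners at an unadjusted p under 0.05 or among the 3 highest per length, and the 3 genes most correlated with KRT8 and KRT18 among genes of at least 10 CPM. Alternatives were DESeq2 1.42.0 size factors and Wald test, upper-quartile scaling, limma-voom with quality weights (limma 3.58.1), a looser and a stricter filter, KRT19 left out of library sizes, the replicate number as a block, and leaving out each library. Residuals of libraries with the same number correlated between -0.16 and 0.057, so the numbers were not treated as pairs. Other variants of the type I to type II ratio (principal transcript length, coding length, without KRT80) were added after the data were seen.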

Additional observations from a re-analysis of the deposited data

Results flagged for a closer look

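In 22 groups of 4 libraries checked for a library far from the other 3, chance alone gives about 1.1 such libraries. KRT19 replicate 3 stood apart in KRT19 itself, at 288.3 CPM against 309.5 to 310.7 in the other 3 KRT19 libraries, and the gap took 94.8% of the range. EV replicate 2 stood apart in KRT10, at 26.03 CPM where the remaining 3 EV libraries had 20.57 to 20.65, with a gap of 98.4% of the range.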

How the results depend on the processing

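KRT19 kept its direction and stayed past the adjusted threshold in all 16 alternatives, with log2 fold changes of 10.52 to 11.17. KRT8 kept its direction in 16 of 16 (-0.11 to -0.039), KRT80 in 16 of 16 (0.018 to 0.082) and KRT7 in the 15 that tested it (-0.44 to -0.17). KRT18 lay between -0.076 and 0.038 and KRT10 between -0.027 and 0.12. KRT18 turned to 0.00070 with limma-voom and to 0.038 without KRT19 replicate 3, and KRT10 to -0.027 and -0.026. Among the members besides KRT19, none came under an unadjusted p of 0.05 by any of these fits but limma-voom, where 1 did (KRT7, limma unadjusted p = 0.0222). The genes past the adjusted threshold were 1 in the reported fit, 5 by the Wald test of DESeq2, 8 by limma-voom, 71 under the looser filter and 1 to 5 on leaving out each library, with 3 without EV replicate 1 and 5 without KRT19 replicate 3. Those at an unadjusted p under 0.05 numbered 791 in the reported fit, 1337 by limma-voom, 1559 under the looser filter, 451 in the fit with the replicate block, and 620 to 1228 on leaving out each library, the highest without KRT19 replicate 1. With the replicate block the KRT19 log2 fold change was 10.75 and no call of a member changed. The type I to type II log2 ratio without KRT19 differed by -0.045 to 0.016 on leaving out each library, by 0.016 without EV replicate 2, by 0.0061 without KRT19 replicate 2, by 0.017 with principal transcript lengths and by 0.069 without KRT80. Paired by replicate number, its sign-flip p was 0.625, where 0.125 is the smallest possible. The causes were not tested.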
